A study of Sus scrofa with 5 samples.

Results

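The anterior neural ectoderm transcription factors described here were 10 genes of the 30029 in the count tables, namely *LHX2*, *SIX3*, *FEZF1*, *PAX7*, *ZIC1*, *ZIC2*, *OTX2*, *SOX1*, *SOX2* and *SOX3*. They were followed in single-cell RNA-seq of porcine blastoids on day 6, last kept in iBlastoid medium (2 libraries). Bulk RNA-seq of porcine embryonic stem cells (pESCs, 3 lines with 1 library each) kept in 4FIXY medium was used as well. In the 2-step method of the paper, cell clusters form in 4FXY medium, which is 4FIXY without IWR1, before iBlastoid medium. Blastoids are blastocyst-like structures grown from pESCs, here picked by hand and dissociated together, so that a library holds the cells of several blastoids. The methods derive the pESCs from parthenogenetic blastocysts and grow them on mouse feeder cells, while 1 of the 3 bulk columns carries a name beginning with IVF. No embryo, untreated or other control group was analysed here.

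Barcodes with at least 11223 unique molecular identifiers (UMIs, each 1 counted transcript molecule) in library 1 or 9805 in library 2 were taken as cells, which gave 7369 and 8175 cells with median depths of 29728 and 27588 UMIs. The cells were described in 4 classes, each cut at a UMI number of 1 gene. The *CRABP1* class (at least 15 UMIs) held 299 cells in library 1 and 458 in library 2. The *POU5F1* class (at least 5) held 910 and 1429 cells, the *PAX6* class (at least 2) 860 and 997, and the *GABRP* class (at least 10) 1626 and 1517. The classes overlapped, and 80 and 102 of the *CRABP1* cells were also *PAX6* cells. Marked doublets made up 34 and 59 of the *CRABP1* cells. Levels are UMIs of a gene per 1000000 UMIs of the class (CPM). The factors and the classes were chosen together on these libraries, so the levels by class are a description, without a test. The level in empty droplets, barcodes with 10 to 100 UMIs, stands for RNA free in the suspension. It gives the make-up of that RNA and not how much of it a cell took up, which was not estimated. A level within or below it is thus not shown to be background.

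In vertebrate embryos the anterior neural plate forms from epiblast-derived ectoderm that has kept away from posteriorizing WNT, FGF and retinoic acid signals. *OTX2* and the SOXB1 genes *SOX1*, *SOX2* and *SOX3* span a wide ectodermal field, and *OTX2*, *SOX2* and *ZIC2* are also transcribed in the pluripotent epiblast. *SIX3*, *LHX2* and *FEZF1* mark the forebrain and eye part of the plate, while *PAX7* and the ZIC genes are known from the plate border, the dorsal neural tube and the neural crest.

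All 10 factors have a RefSeq gene model on Sscrofa11.1, the assembly behind the susScr11 build of the deposited data. *LHX2* lies on the plus strand at chr1:264900931-264920888, *SIX3* on the minus strand at chr3:95521330-95527004, *FEZF1* on the plus strand at chr18:24881850-24884790 and *PAX7* on the plus strand at chr6:77160827-77268626. *ZIC1* (plus, chr13:87740769-87750258), *ZIC2* (plus, chr11:68840802-68845441) and *OTX2* (minus, chr1:186028575-186039026) follow. The SOXB1 genes have 1 exon each, *SOX1* on the plus strand at chr11:77985771-77989383, *SOX2* on the plus strand at chr13:119668476-119669435 and *SOX3* on the minus strand at chrX:115017704-115020601. The *SOX3* model lies inside LOC110257749, a protein-coding model of the opposite strand. Of the 45 pairs of factors, 1 pair shared an exact stretch of 50 bases in its transcripts, *SOX1* with *SOX3*, at 11 positions, so reads inside those stretches cannot be told apart.

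Some of the models bear on how the counts can be read. The *SOX2* model is 960 bases long and wholly coding, with no annotated UTR, so molecules read outside the coding part were missed where the counting used this model. The model ends with the stop codon, shown in capitals with the bases before it (chr13:119669406-119669435, plus strand).
SOX2: aacggtacactgcctctctctcacatgTGA
*ZIC1* and *ZIC4* stand head to head with 45 bases between their start sites, and *ZIC2* and *ZIC5* with 10330. *SIX3* shares 1302 bases with LOC110260022, a protein-coding model of the opposite strand that has 1 transcript starting inside the first exon of *SIX3* and another starting 188 bases away from the *SIX3* start, on its upstream side. The window from 250 bases before to 50 after the *SIX3* start (chr3:95526955-95527254, minus strand) shows those 188 bases in capitals.
SIX3: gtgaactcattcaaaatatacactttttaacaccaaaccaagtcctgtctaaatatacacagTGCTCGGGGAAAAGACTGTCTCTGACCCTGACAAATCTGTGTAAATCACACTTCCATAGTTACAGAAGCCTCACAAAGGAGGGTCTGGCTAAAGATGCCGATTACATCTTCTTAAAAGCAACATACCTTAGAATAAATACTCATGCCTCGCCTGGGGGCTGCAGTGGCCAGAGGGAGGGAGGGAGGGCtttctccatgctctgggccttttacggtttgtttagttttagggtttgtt
The same window is given for *LHX2*, *FEZF1* and *PAX7*, which like *SIX3* had their highest level in the *CRABP1* class. Each CG dinucleotide is in capitals (LHX2 chr1:264900681-264900980, FEZF1 chr18:24881600-24881899, PAX7 chr6:77160577-77160876, all plus strand).
LHX2: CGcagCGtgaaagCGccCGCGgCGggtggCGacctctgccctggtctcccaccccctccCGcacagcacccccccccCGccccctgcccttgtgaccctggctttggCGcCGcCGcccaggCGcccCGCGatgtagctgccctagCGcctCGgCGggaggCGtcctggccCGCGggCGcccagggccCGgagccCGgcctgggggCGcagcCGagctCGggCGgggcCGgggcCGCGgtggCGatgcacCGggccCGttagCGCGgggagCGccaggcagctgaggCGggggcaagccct
FEZF1: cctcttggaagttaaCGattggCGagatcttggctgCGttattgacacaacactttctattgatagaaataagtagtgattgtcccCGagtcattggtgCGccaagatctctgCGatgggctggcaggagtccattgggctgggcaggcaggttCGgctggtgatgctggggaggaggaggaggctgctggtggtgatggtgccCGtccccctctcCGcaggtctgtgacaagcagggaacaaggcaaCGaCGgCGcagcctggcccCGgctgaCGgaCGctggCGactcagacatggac
PAX7: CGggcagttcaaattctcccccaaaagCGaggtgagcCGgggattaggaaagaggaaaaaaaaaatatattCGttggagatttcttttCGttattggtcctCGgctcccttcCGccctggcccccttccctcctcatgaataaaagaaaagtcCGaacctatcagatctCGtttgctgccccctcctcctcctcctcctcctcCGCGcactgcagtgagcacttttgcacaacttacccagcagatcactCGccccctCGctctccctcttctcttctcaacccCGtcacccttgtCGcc
The *LHX2* window held 38 CG, at the 90.1st percentile of the 19531 windows of that length at gene starts. The *FEZF1* window held 16, the median of all windows, the *PAX7* window 15 and the *SIX3* window 4. The windows of these 4 factors therefore did not share a CG content. On either strand, ACAAAG was found in the *SIX3* window alone of the 10 (13.9% of all windows) and TAATCC in the *PAX7* window alone (6.09% of all), while TAATTA (4.11%) and the octamer ATGCAAAT (1.39%) were in none of the 10. These matches are letters in a window and no measured sites.

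Of the factors with at least 10 CPM in the *CRABP1* class, *LHX2*, *SIX3*, *FEZF1* and *PAX7*, with the low *SOX1*, set it apart from the *POU5F1* class. *SIX3* was shared with the *PAX6* class, where 75.7% and 76.1% of cells had a UMI of it, against 75.9% and 81.4% of *CRABP1* cells. *LHX2*, a LIM homeobox gene of the eye field and cortex, stood at 173 CPM in library 1 and 190 in library 2 of the *CRABP1* class. In the *PAX6* class it stood at 29.3 and 32.9 CPM, in the *POU5F1* class at 7.59 and 8.96 and in the *GABRP* class at 3.56 and 5.36, against 15.9 and 16.2 CPM in empty droplets. The 4 classes did not overlap over the libraries, and the *POU5F1* and *GABRP* levels lay under that of the free RNA. *SIX3*, a homeobox gene of the most anterior plate, stood at 194 and 229 CPM in the *CRABP1* class and at 80.5 and 91.8 CPM in the *PAX6* class. Its *POU5F1* level, 24.5 and 22.7 CPM, was within the 21.3 and 32.0 CPM of empty droplets, and its *GABRP* level was 10.5 and 12.3 CPM.

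*FEZF1*, a zinc finger repressor of the forebrain, stood at 84.7 and 120 CPM in the *CRABP1* class. It was at 10.7 and 17.7 CPM in the *PAX6* class, 6.56 and 9.14 in the *POU5F1* class and 2.33 and 4.16 in the *GABRP* class, with 4.27 and 11.9 CPM in empty droplets. The classes did not overlap, although library 2 was above library 1 in each class and in empty droplets. *PAX7*, a paired box gene of the neural border and dorsal tube, stood at 185 and 202 CPM in the *CRABP1* class, 22.4 and 33.7 in the *PAX6* class and 13.1 and 13.2 in the *POU5F1* class, against 6.71 and 10.2 CPM in empty droplets. All 4 factors thus had their highest level in *CRABP1* cells of both libraries.

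Much of the *LHX2* signal of the *PAX6* class came from cells that were in both classes. In cells of exactly 1 class, *LHX2* stood at 11.9 and 12.2 CPM in the *PAX6* cells (655 and 777 cells), which is under the empty droplets, and at 195 and 206 CPM in the *CRABP1* cells (192 and 313 cells). *FEZF1* stood at 3.68 and 7.52 CPM and *PAX7* at 18.2 and 22.6 CPM in those *PAX6* cells. *SIX3* kept 85.7 and 89.3 CPM there, with a UMI in 74.0% and 75.2% of the cells, against 4.45 and 6.77 CPM in cells of the *GABRP* class alone. Of the 4 factors, *SIX3* and *PAX7* were thus above the level of empty droplets in cells of the *PAX6* class alone, and *LHX2* and *FEZF1* were below it. *OTX2* (45.5 and 46.9 CPM) and *SOX2* (30.2 and 38.2 CPM) were above it there too.

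**Figure D1:**
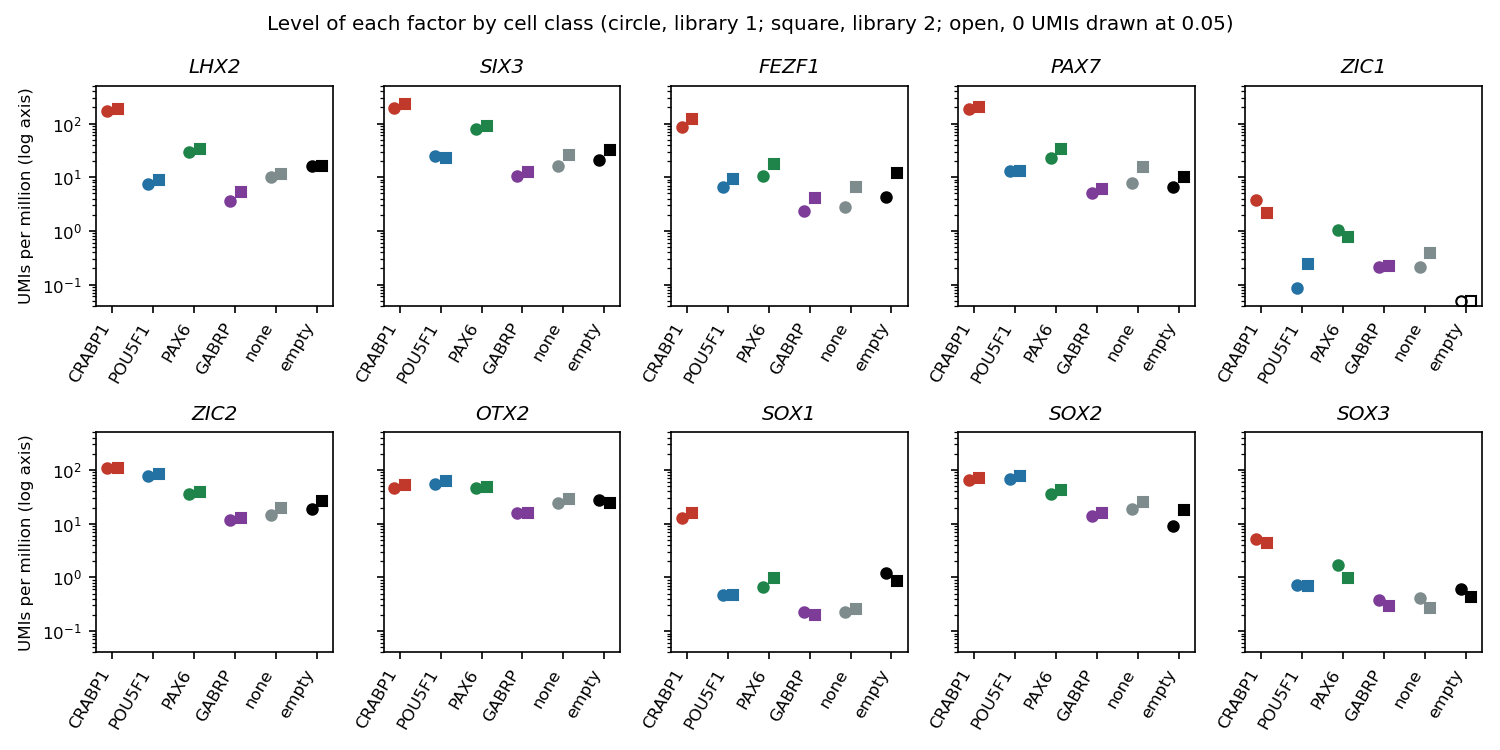
Level of each factor (CPM, log axis) in the *CRABP1*, *POU5F1*, *PAX6* and *GABRP* classes, in cells of no class and in empty droplets, with 1 point per library and 0 UMIs drawn open at the bottom. *LHX2*, *SIX3*, *FEZF1*, *PAX7* and *SOX1* peak in the *CRABP1* class, while in each library the *OTX2* and *SOX2* points of the *POU5F1* class lie above those of the *CRABP1* class.

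The SOXB1 genes, HMG-box factors that keep neural progenitors from differentiating, were of 2 kinds. *SOX2* stood at 67.7 and 78.3 CPM in the *POU5F1* class and 64.2 and 72.2 CPM in the *CRABP1* class, which overlapped between the libraries. It was at 35.3 and 41.7 CPM in the *PAX6* class and 13.7 and 15.7 in the *GABRP* class, and the latter lay within the 9.15 and 17.9 CPM of empty droplets. *SOX1*, the SOXB1 gene that is most restricted to neural cells, stood at 12.6 and 15.7 CPM in the *CRABP1* class and did not pass 0.971 CPM in any other class, below or near the 1.22 and 0.853 CPM of empty droplets, which rest on 2 UMIs each. A *SOX1* UMI was seen in 24.1% and 24.9% of *CRABP1* cells. *SOX3*, its X-linked relative, stood at 5.14 and 4.34 CPM in the *CRABP1* class, from 59 and 63 UMIs, and at 1.74 and 0.971 CPM in the *PAX6* class. The *SOX1* and *SOX3* values are the ones that the shared stretches could touch.

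*OTX2*, a homeobox gene of epiblast and anterior head, was highest in the *POU5F1* class and somewhat lower in the *CRABP1* and *PAX6* classes. It stood at 56.0 and 62.7 CPM in the *POU5F1* class, 46.7 and 52.2 in the *CRABP1* class and 47.2 and 48.4 in the *PAX6* class. The last 2 overlapped, and both exceeded the 15.7 and 15.6 CPM of the *GABRP* class. In cells of exactly 1 class *OTX2* stood at 62.9 and 67.5 CPM in *POU5F1* cells and 36.4 and 46.9 CPM in *CRABP1* cells. *ZIC2*, a zinc finger gene of epiblast and neural plate, stood at 109 and 110 CPM in the *CRABP1* class, 76.4 and 83.0 in the *POU5F1* class, 35.4 and 39.4 in the *PAX6* class and 11.6 and 12.7 in the *GABRP* class, so that no 2 classes overlapped. *ZIC1* was close to absent, with 3.75 and 2.13 CPM in the *CRABP1* class from 43 and 31 UMIs and no UMI in the empty droplets of either library. Its head-to-head neighbour *ZIC4* had 8 UMIs in the *CRABP1* cells without a *SOX10* UMI, 3 in library 1 and 5 in library 2. *ZIC5*, the neighbour of *ZIC2*, stood at 30.3 and 35.2 CPM in the *CRABP1* class and 18.4 and 21.6 CPM in the *POU5F1* class, the same order of classes as *ZIC2*.

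Seen from the other side, the *CRABP1* class was 4.06% and 5.60% of all cells and held 51.5% and 56.2% of all *LHX2* UMIs of cells, 56.0% and 53.5% of those of *FEZF1*, 52.2% and 48.3% of those of *PAX7* and 73.2% and 79.2% of those of *SOX1*. It held 29.3% and 32.4% of *SIX3*, of which the larger *PAX6* class held 39.1% and 35.0%, 17.3% and 16.3% of *ZIC2*, 10.1% and 10.4% of *SOX2* and 6.93% and 7.87% of *OTX2*. The *POU5F1* class held 43.7% and 48.1% of *SOX2* and 49.8% and 52.7% of *ZIC2*. Of the sparse factors, *ZIC1* had 43 of its 86 UMIs in the *CRABP1* class in library 1 and 31 of 103 in library 2. *SOX3* had 32.6% and 38.4% of its 181 and 164 UMIs there. The 10 factors are thus no single set in these cells, as *ZIC2*, *SOX2* and *OTX2* had smaller shares in *CRABP1* cells than the other factors.

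A gene was counted as higher in a class when it exceeded the other class at least 2-fold in both libraries, on the CPM + 1 scale, among genes with at least 10 CPM in 1 of the classes. Against the *POU5F1* class, 5 of the 8 factors that passed this filter were higher in the *CRABP1* class (*LHX2*, *SIX3*, *FEZF1*, *PAX7* and *SOX1*), where 4.14% of all genes were. Against the *PAX6* class 6 of 8 were higher, these and *ZIC2*, with 2.81% of all genes, and against the *GABRP* class 8 of 8, with 5.87% of all genes. None was lower, where 1.25%, 0.833% and 3.8% of all genes were. Between the other classes, *ZIC2* was higher and *LHX2* and *SIX3* were lower in the *POU5F1* than in the *PAX6* class (1 and 2 of 7, with 1.54% and 1.86% of all genes). In the *POU5F1* class 4 of 5 were higher than in the *GABRP* class and none lower (3.79% and 4.25% of all genes), and in the *PAX6* class 7 of 7 were higher and none lower (2.73% and 3.65%). *ZIC1* and *SOX3* passed the filter in no comparison. Since the factors were chosen from these contrasts, nothing is read from these counts. The folds against the *POU5F1* class were 19.7 for *LHX2*, 13.8 for *PAX7*, 11.7 for *FEZF1*, 10.3 for *SOX1* and 8.62 for *SIX3*, and they were 1.37 for *ZIC2*, 0.936 for *SOX2* and 0.836 for *OTX2*. The *POU5F1* levels of *LHX2*, *SIX3*, *FEZF1* and *SOX1* were within or below those of empty droplets, which does not show that they are background.

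Other genes of the neural and related lists place the *CRABP1* class beside these factors. Of 23 further anterior neural genes, 7 passed the filter against the *POU5F1* class and 3 were higher, *SIX6* (44.3 and 54.2 CPM against 0.339 and 0.819), *NR2F1* (30.3 and 25.3 against 2.44 and 1.33) and *RAX* (20.0 and 23.7 against 1.76 and 2.02), genes of the eye field and forebrain. *HESX1*, an anterior repressor, was at 80.4 and 110 CPM in the *CRABP1* class and 80.7 and 90.6 CPM in the *POU5F1* class. Of the midbrain and isthmus list all 3 that passed were higher, *PAX2*, the isthmus signal *FGF8* (66.3 and 92.5 CPM against 4.50 and 4.87) and *LMX1A*. Of the neural crest list 8 of 12 were higher, led by *PAX3*, *SCRG1*, *TFAP2B* and *SOX10*. Part of this crest signal lay in the few *CRABP1* cells with at least 2 *SOX10* UMIs. As means of both libraries, *SCRG1* stood at 249 CPM in those cells and at 6.15 CPM in cells with none. *TFAP2B* stood at 242 and 24.2 CPM and *PAX3* at 195 and 69.0 CPM. Of the pan-neural plate list 7 of 20 were higher, among them *NCAM1* and *CDH2*, and *IRX2* was lower. Of the pluripotency list 4 of 7 were lower, among them *POU5F1*, which set the other class, *UTF1* and *DNMT3B*, and 1 was higher. Of the trophectoderm and amnion list none of 11 was higher or lower, and none of 7 of the mesoderm list was. Against the *PAX6* class 1 of 11 of the trophectoderm and amnion list was lower, where 0.833% of all genes were. Against the *GABRP* class 9 of 11 were lower, *GABRP* included, which set that class, where 3.8% of all genes were. Against the *POU5F1* class, the median log2 difference over all 10130 genes was 0.03 and over the anterior neural list 0.75. Over the neural crest list it was 2.10, with the cells that had *SOX10* UMIs included. Since some genes of the isthmus and crest lists were higher beside some of the anterior neural list, the class is called by its gene here and given no cell type name.

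The factors were met in the same cells. At their own depth, *CRABP1* cells had a UMI of a median of 6 of the 10 factors, *POU5F1* and *PAX6* cells of 3 and *GABRP* cells of 1. *CRABP1* cells were shallower than *POU5F1* cells (medians of 28026 and 26277 against 43438 and 38778 UMIs), and with every cell thinned to 9500 UMIs the median was 4 in both libraries, against 1 in *POU5F1* and *PAX6* cells and 0 in *GABRP* cells. All of *LHX2*, *SIX3*, *FEZF1* and *PAX7*, grouped after their values were seen, had a UMI in 129 (43.1%) and 224 (48.9%) of the *CRABP1* cells. The same held for 3.19% and 2.73% of *POU5F1* cells, 6.16% and 7.52% of *PAX6* cells and 1.17% and 1.71% of *GABRP* cells. *GABRP* cells had medians of 32626 and 31158 UMIs, and 26 and 34 of them were also *CRABP1* cells. After thinning the share was 18.7% and 24.9% of *CRABP1* cells. The trio *SOX2*, *OTX2* and *ZIC2* without any of those 4 was seen in 23.2% and 22.9% of *POU5F1* cells and in 1.00% and 0.437% of *CRABP1* cells. The trio itself was complete in 47.5% and 46.5% of *CRABP1* cells and 55.5% and 54.0% of *POU5F1* cells, so the classes differed in the 4 and less in the trio.

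**Figure D2:**
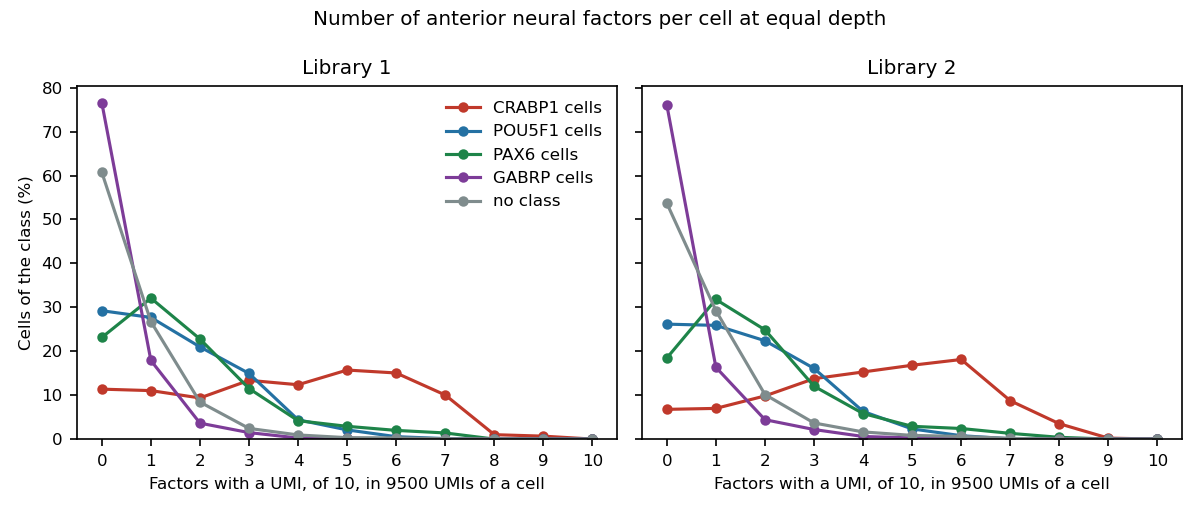
Share of the cells of each class (y axis, %) by how many of the 10 factors had a UMI (x axis) when each cell was thinned to 9500 UMIs, with 1 panel per library. The *CRABP1* curve peaks at 5 factors in library 1 and 6 in library 2, while the *GABRP* curve and that of cells of no class peak at 0.

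Of the 41 and 65 cells that kept 7 or more factors after thinning, 85.4% and 87.7% were in the *CRABP1* class and 97.6% and 100% had a *CRABP1* UMI. None of the 41 and 3 of the 65 were among the barcodes marked as doublets. The factors were not switched on at the *CRABP1* cut itself. In library 2, cells just outside it (10 to 14 UMIs, 97 cells) had 51.8 CPM of *LHX2*, 167 of *SIX3* and 175 of *PAX7*, and those just inside (15 to 19 UMIs, 45 cells) had 45.8, 155 and 163 CPM. In library 1 the 61 cells outside had 38.4, 69.0 and 72.0 CPM and the 42 cells inside had 37.6, 115 and 122.5 CPM. Among cells without a *SOX10* UMI, *LHX2* went from 40.4 and 46.2 CPM at 15 to 19 *CRABP1* UMIs to 294 and 337 CPM at 60 or more, whereas *PAX7* was at 271 and 225 CPM with 20 to 29 UMIs and at 201 and 214 CPM with 60 or more. *LHX2* and *SOX1* were thus at their highest in the cells richest in *CRABP1*, and *PAX7* was not.

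Within *CRABP1* cells the factors did not move as 1 block. Over the 674 *CRABP1* cells without a *SOX10* UMI (264 and 410), *SIX3* and *FEZF1* correlated at r = 0.65 in library 1 and 0.62 in library 2, *LHX2* and *FEZF1* at 0.63 and 0.58 and *LHX2* and *SOX2* at 0.54 and 0.49 (Pearson, log of UMIs per 10000). *PAX7* correlated with *SIX3* at 0.42 and 0.26, with *LHX2* at 0.00 and -0.15, with *OTX2* at -0.17 and -0.15 and with *SOX2* at -0.18 and -0.22. These are correlations over cells that share a library and differ in depth, given with no test. The shares after thinning are over the whole *CRABP1* class, cells with *SOX10* UMIs included, whose part in the shares was not tested. *LHX2* and *FEZF1* were both seen in 36.1% and 44.1% of *CRABP1* cells, where the product of their single shares was 23.3% and 31.0%. *LHX2* and *PAX7* were both seen in 30.8% and 34.1%, close to the product of 29.9% and 36.8%.

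**Figure D3:**
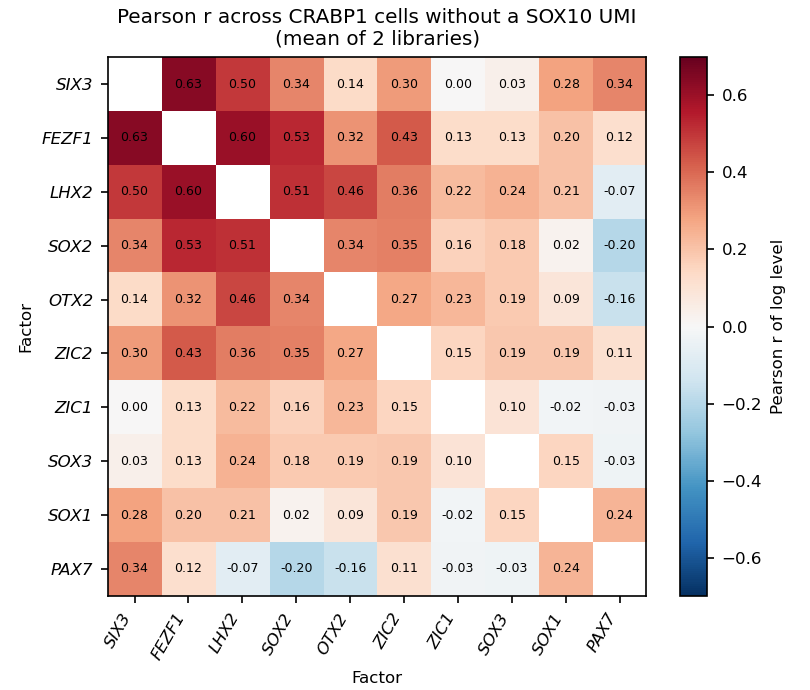
Pearson r of each pair of factors over *CRABP1* cells without a *SOX10* UMI, as the mean of 2 libraries, with the colour scale from -0.7 to 0.7 and the diagonal left white. The pairs of *SIX3*, *FEZF1* and *LHX2* lie at 0.50 to 0.63, and *PAX7* is at 0.34 with *SIX3* and at -0.20 with *SOX2*.

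The genes with the pattern most like each factor were sought over all 15544 cells among 16609 genes, by the mean of both libraries' Pearson r. For *SIX3* this was LOC110260022, the opposite-strand model at its start (r = 0.74 in both libraries), ahead of *CRABP1* and *DCC*. It stood at 75.1 and 87.6 CPM in the *CRABP1* class and 30.9 and 34.4 CPM in the *PAX6* class, and since the models overlap and the strand setting of the counting is not stated, part of either count may belong to the other gene. *LHX2* and *FEZF1* both had *CDH6*, a cadherin, and the lncRNA LOC100514051 among their 3 nearest, and *LHX2* also *CRABP1*. *PAX7* had *CRABP1* (0.56) and *DLG2* among its nearest. *SOX1* had LOC100514051 (0.46), *TNFAIP6* and *TMEM130*. *ZIC2* had *HESX1* (0.64), *ZIC5* and *ERAS*, *SOX2* had *HESX1* (0.57), *SOX21* and *IRS4*, and *OTX2* had *IRS4* (0.47), *CYP26A1* and *LHX5*. The nearest genes of *ZIC1* (*CDH6*, *ZBTB16* and *CRABP1*) and *SOX3* (*CDH6*, *CRABP1* and *NEUROD1*) did not pass 0.24 and rest on sparse counts.

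*CRABP1* cells also held a small set with *SOX10*, the neural crest regulator, and nearly all factors were lower there. *SOX10* was not used to choose the factors, but the *CRABP1* class was, and most of its cells had no *SOX10* UMI. A lower level in the few *SOX10* cells is therefore not independent of that choice. The difference was tested on UMI sums per library with the quasi-likelihood test of edgeR. It set 23 and 30 *CRABP1* cells with at least 2 *SOX10* UMIs against 264 and 410 with none. P-values were adjusted over 13771 genes (Benjamini-Hochberg). In that fit 8.26% of all genes were lower and 6.96% higher in *SOX10* cells, and 8 of the 10 factors were lower and none higher. The 2 libraries are all the replication there is, and nothing says that they came from separate cultures, so the p-values measure the spread between these 2 libraries only.

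*LHX2* fell from 192 and 207 CPM to 4.87 and 2.09 CPM, a log2 fold change of -5.82 ± 0.25 (SE, adjusted p = 3.43e-06). *SIX3* fell from 215 and 250 CPM to 6.09 and 1.05 CPM (-6.04 ± 0.31, adjusted p = 8.91e-06) and *FEZF1* from 92.6 and 130 CPM to 1.22 and 3.14 CPM (-5.57 ± 0.48, adjusted p = 0.000108). These levels of *SOX10* cells rest on 1 to 5 UMIs in each library. On the log2(CPM + 1) scale, the difference of *LHX2* was -5.04 in library 1 alone and -6.07 in library 2 alone, and that of *SIX3* was -4.93 and -6.94. *SOX2* fell by 2.99 on the log2 scale to 10.96 and 7.32 CPM, *OTX2* by 2.42 to 8.52 and 10.5 CPM and *ZIC2* by 1.87 to 21.9 and 38.7 CPM. *SOX1* had no UMI in *SOX10* cells of either library. It passed the count filter through the other *CRABP1* cells alone, so its call is no independent support. With a floor of 3 UMIs over both libraries, 1.69 CPM, it was at least 9.43-fold lower than the 15.9 CPM of the other *CRABP1* cells (adjusted p = 0.00216), and with the counting error of both sides the 95% interval of the ratio began at 7.63.

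*PAX7* was still seen in many *SOX10* cells. It stood at 68.2 and 54.4 CPM against 199 and 215 CPM, a log2 fold change of -1.71 ± 0.13 (adjusted p = 6.47e-05), with a UMI in 12 of 23 cells (52.2%, exact 95% interval 30.6 to 73.2%) and 17 of 30 (56.7%, 37.4 to 74.5%). *CRABP1*, whose UMIs set the class of both sides, was higher in the *SOX10* cells, at 3965 and 4510 CPM against 2615 and 2855 CPM. Its relation to the lower factor levels was not tested. *ZIC1* had 0 UMIs (adjusted p = 0.0948) and *SOX3* 1 UMI (adjusted p = 0.0594) in *SOX10* cells, and neither passed the threshold of 0.05. Their levels in the other *CRABP1* cells, 3.06 and 5.09 CPM, leave a counting interval of the ratio that began at 1.44 for *ZIC1* and ran from 1.59 to 360 for *SOX3*. Intervals and floors cover counting error only.

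Of the other lists, 11 of 14 neural crest genes were higher in *SOX10* cells, *SOX10* included, which set the split. They were led after it by *SCRG1* (249 against 6.15 CPM), with *FOXD3* among them. Of 16 anterior neural genes tested, 4 were lower, among them *HESX1* (6.88 against 103 CPM) and *SIX6* and *RAX*, which had no UMI in *SOX10* cells. The 1 that was higher was *NR2F1* (93.8 against 20.8 CPM), a gene that was also higher in the *CRABP1* than in the *POU5F1* class. Of 8 midbrain and isthmus genes tested, *FGF8* was lower and *LMX1B* was higher. The lower genes were not only neural ones. Of the placode list 5 of 9 were lower and of the pluripotency list 4 of 7, with none higher in either. Of 23 pan-neural plate genes 9 were lower, with *SOX21*, *DACH1* and *SFRP2* at the top, and 1 was higher. The median log2 fold change was 2.41 over the crest list, -1.59 over the anterior neural list and -0.03 over all genes tested. Of the trophectoderm and amnion list 4 of 11 were lower, among them *KRT8* and *KRT18*, and 1 was higher. No doublet was marked among the 23 *SOX10* cells and 1 among the 30, against 32 of 264 and 56 of 410 of the other cells. Without marked doublets *SOX3* was lower too (adjusted p = 0.0341) and *LHX2* differed by -5.96.

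*POU5F1* cells could be split by *GATA3*, a regulator of trophectoderm, amnion and surface ectoderm, and the factors of pluripotent cells fell with it. *POU5F1* cells with fewer than 15 *CRABP1* UMIs were divided into those with at least 3 *GATA3* UMIs (585 and 782 cells) and those with 0 or 1 (229 and 507 cells), and their sums were tested in the same way over 16760 genes. All 9 factors that passed the filter were lower in the *GATA3* cells, where 20.4% of all genes were lower and 20.8% higher. *ZIC1* was not tested. The *POU5F1* class was used to choose the factors too, so this test is not independent of that choice either.

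*ZIC2* fell from 159 and 148 CPM to 48.7 and 48.8 CPM (log2 fold change -1.58 ± 0.06, adjusted p = 4.35e-09). *SOX2* fell from 135 and 138 CPM to 46.0 and 48.0 CPM (-1.47 ± 0.06, adjusted p = 8.52e-09), and *OTX2* from 89.0 and 90.2 CPM to 46.8 and 47.4 CPM (-0.86 ± 0.06, adjusted p = 5.49e-07). *OTX2* thus kept more of its level than *ZIC2* and *SOX2*, though the difference between the factors was not tested. *FEZF1* fell from 14.9 and 13.9 CPM to 2.68 and 3.93 CPM (-2.04 ± 0.18, adjusted p = 2.68e-06), and its level with little *GATA3* was above the 4.27 and 11.9 CPM of empty droplets. *LHX2* (-0.51), *SIX3* (-0.42) and *PAX7* (-0.59) fell less, and on both sides *LHX2* was below its level in empty droplets. *LHX2* had a UMI in 15.4% and 17.3% of *GATA3* cells, against 15.7% and 12.4% of the others. For *SIX3* the shares were 25.8% and 27.0% against 27.1% and 23.9%, and for *PAX7* 17.9% and 18.4% against 20.5% and 19.5%. These shares are at unequal depth. *SOX1* (-1.81) and *SOX3* (-1.38) rest on 4 to 19 UMIs a sum, and on the log2(CPM + 1) scale their differences were -0.78 and -0.94 in library 1 alone and -0.32 and -0.40 in library 2 alone.

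*POU5F1* was itself lower in the *GATA3* cells, at 210 and 230 CPM against 478 and 563 CPM, and median depths were 44710 and 42006 UMIs against 40980 and 35664. Doublets were marked in 71 of 585 and 127 of 782 *GATA3* cells and in 9 of 229 and 17 of 507 of the others. Their part in the result was not tested beyond leaving them out, after which all 8 factors tested were lower. Of all 16296 genes of that fit, 3215 were lower and 3625 higher. All 12 genes of the trophectoderm and amnion list were higher in the *GATA3* cells, *GATA3* itself included, which set the split, and among them *TFAP2A* (256 against 45.9 CPM) and *KRT7*. Of the placode list 10 of 11 were higher, again with *GATA3*. Of the pluripotency list 10 of 11 were lower, among them *DNMT3B* (74.3 against 445 CPM), *NANOG* and *NODAL*. Of the pan-neural plate list 13 of 23 were lower, such as *POU3F1* and *FRZB*, and 5 were higher, such as *POU3F2* and *IRX1*. Of the anterior neural list 4 of 16 were lower, with *HESX1* (46.9 against 173 CPM), and 5 were higher, with *OTX1* and *TBX3*. The median log2 fold change was 2.12 over the trophectoderm and amnion list, -1.83 over the pluripotency list and 0.00 over all genes tested. DESeq2 called 6 of the 9 factors, without *LHX2* (adjusted p = 0.119), *SOX1* (0.133) and *SOX3* (0.101). All 6 were lower, where 2348 of 16760 genes were lower and 2501 higher.

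**Figure D4:**
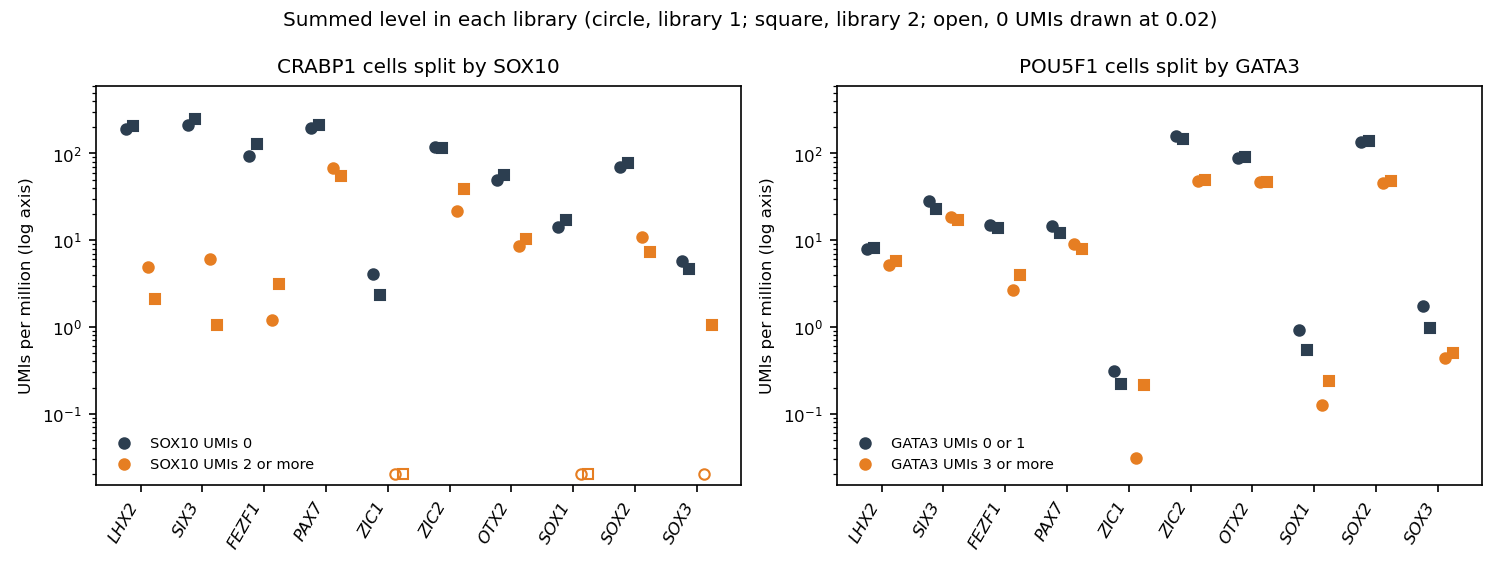
Level of each factor (CPM, log axis) in *CRABP1* cells with 0 and with 2 or more *SOX10* UMIs (left) and in *POU5F1* cells with 0 or 1 and with 3 or more *GATA3* UMIs (right), with 1 point per library and 0 UMIs drawn open at the bottom. With *SOX10*, *LHX2*, *SIX3* and *FEZF1* lie at 1.05 to 6.09 while *PAX7* stays at 54.4 and 68.2, and with *GATA3* the *ZIC2* and *SOX2* points lie at 46.0 to 48.8.

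In pESCs, from which blastoids are grown, only part of the set reached 1 FPKM in every library. FPKM, fragments scaled by transcript length and by library depth, were added over the transcripts of a gene, and the 3 columns are named IVFP25, PA_4P7 and PAP25. *SOX2* stood at 241, 227 and 182 FPKM (217 ± 31.0, SD, n = 3), *ZIC2* at 77.4, 102 and 94.7 FPKM (91.2 ± 12.4) and *OTX2* at 52.6, 87.0 and 71.2 FPKM (70.3 ± 17.2) over its 9 transcripts. These were the 3 highest of the set per kilobase, at the 98.6th, 96.3rd and 94.9th percentile of genes above 0. *OTX2* overlapped with *ZIC2* between the libraries and *SOX2* did not overlap with either. *FEZF1* stood at 1.73, 6.96 and 2.94 FPKM, and these 4 genes were the ones with at least 1 FPKM in every library.

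*SIX3* was at 0.267, 0.669 and 8.14 FPKM, so that PAP25 alone was above 1 FPKM, and its opposite-strand neighbour LOC110260022 was at 0.487, 0.692 and 4.34 FPKM, highest in the same library. *LHX2* (0.262, 0.224 and 0.284 FPKM), *SOX3* (0.427, 0.267 and 0.314), *SOX1* (0.301, 0.169 and 0.0210), *ZIC1* (0.0135, 0.0687 and 0.0434) and *PAX7* (0.0209, 0 and 0.0181) stayed below 1 FPKM in every library, and *PAX7* was listed at 0 in PA_4P7. *CRABP1* was at 6.19, 6.02 and 5.15 FPKM and *PAX6* at 0.0436, 0.101 and 0.148 FPKM. Of *LHX2*, *SIX3*, *FEZF1*, *PAX7* and *SOX1*, *FEZF1* alone had 1 FPKM or more in all pESC libraries. The pESCs and blastoids were measured by different assays and their levels were not compared. The depth of the bulk libraries is unknown.

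**Figure D5:**
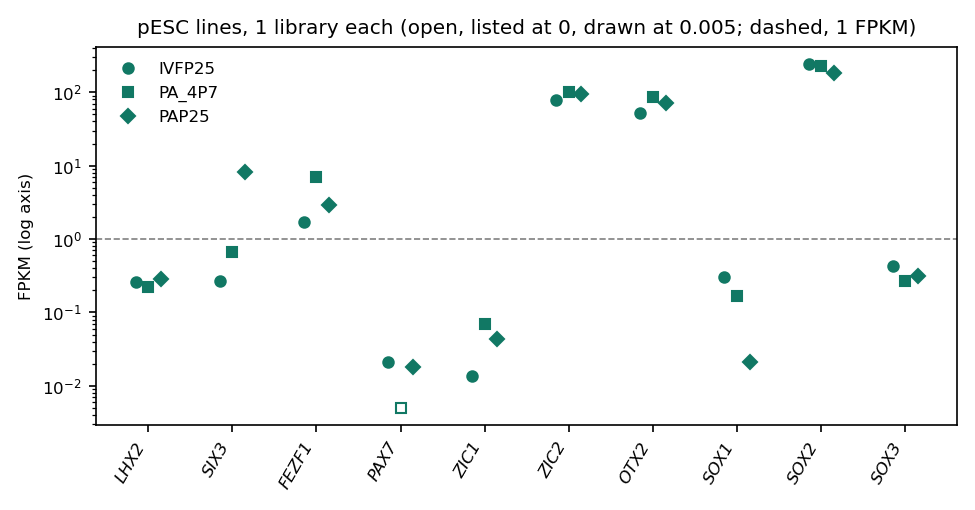
FPKM of each factor in the 3 pESC libraries (log axis, 1 point per library, a value listed at 0 drawn open at 0.005, dashed line at 1 FPKM). *SOX2*, *ZIC2* and *OTX2* lie between 52.6 and 241, *FEZF1* above the line in all 3, and *SIX3* spreads from 0.267 to 8.14.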

How the data were processed

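The data were 2 blastoid libraries of single-cell RNA-seq and 3 pESC bulk libraries. For single cells, the authors mapped reads to susScr11 with Cell Ranger 7.1.0, per the labels, and the deposited values are raw UMI counts of every barcode (289452283 and 302211552 UMIs). For pESCs, the authors used Trim Galore 0.6.4, HISAT2 2.2.1 and StringTie 2.2.1, and the deposited values are FPKM per transcript with no counts. The gene annotation, the strand setting and whether introns were counted are not given in the sources used here.

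The genes, classes and gene lists were chosen with earlier results of these data known. All 10 factors were named, with the 3 genes most like each (highest mean Pearson r of ln(1 + UMIs per 10000) over both libraries, genes with a UMI in at least 1% of cells) and up to 4 genes of each list by size of change, some of which are not reported here. Of the cells, 9 barcodes occurred in both libraries. The automatic threshold of Scrublet (scanpy 1.11.5) marked 1 and 0 cells, so the highest scores up to 0.8% per 1000 cells (434 and 535 cells) were marked instead and left out only in an alternative. UMI sums per library were tested with edgeR 4.0.16 (TMM, filterByExpr, quasi-likelihood test, Benjamini-Hochberg adjustment, threshold 0.05). Counts were simulated with 4-fold changes and 1 common dispersion for all genes. In them 173 of 196 changed genes (88.3%) were recovered for the *SOX10* split and 191 of 198 (96.5%) for the *GATA3* split. Of the unchanged genes, 14 and 7 were called. Smaller changes, such as those of *LHX2*, *SIX3*, *PAX7* and *OTX2* in the *GATA3* split, were not simulated. The sums of a library come from 1 sample, and their deviations correlated at 0.136 and 0.240, so the replicate block (library) was fitted as an alternative. Others were DESeq2, RLE size factors, no count filter, other class or split thresholds, cells of 1 class, no cells of high mitochondrial share, thinning to 9500 UMIs, a pseudocount of 5 CPM, a minimum of 1 CPM, single transcripts and each library left out. Gene models and windows came from RefSeq on Sscrofa11.1, where 29862 of the 30029 gene names were found.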

Additional observations from a re-analysis of the deposited data

How the results depend on the processing

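The count of factors at least 2-fold higher in the *CRABP1* class kept within 1.5 times under every alternative run. It was 5 to 7 against the *POU5F1* class, 6 or 7 against the *PAX6* class and 8 to 10 against the *GABRP* class. The upper ends came from the minimum of 1 CPM, for the *PAX6* class also from doubled class thresholds. As the factors were chosen from these contrasts, nothing is read from these counts or from how little they moved. The mean number of factors per *CRABP1* cell, 5.45, was 5.15 in cells of exactly 1 class, 5.67 with class thresholds doubled and 3.93 after thinning to 9500 UMIs, where fewer UMIs were drawn from each cell, and 5.34 to 5.55 with 1 library left out. With the library as a replicate block, 8 of 10 factors were lower in *SOX10* cells and 9 of 9 in *GATA3* cells, as without it. No call of a factor changed. In those fits 1278 of 13771 genes were lower in *SOX10* cells, and 4297 of 16760 were lower and 4290 higher in *GATA3* cells. Of all genes tested, 1138 were lower in *SOX10* cells, 1745 with no count filter and 697 with *SOX10* cells taken from 1 UMI. That lower cut kept 8 of 10 factors lower but moved the log2 fold changes most. *LHX2* then differed by -2.41 in place of -5.82, *SIX3* by -2.52 in place of -6.04 and *FEZF1* by -1.77 in place of -5.57. *PAX7* moved less, from -1.71 to -1.19. The size of the difference thus depended on the *SOX10* cut. Without the filter *ZIC1* and *SOX3* were called as well. With 1 library there are no residual degrees of freedom, so only folds on the log2(CPM + 1) scale could be had, and *SIX3* then ranged from -6.94 to -4.93, *LHX2* from -6.07 to -5.04, *PAX7* from -1.96 to -1.53 and *ZIC2* from -2.37 to -1.56 in *SOX10* cells. The count of factors with at least 1 FPKM in every pESC library was 4 with the highest transcript only and with any 1 library left out, and *OTX2* dropped to a mean of 27.3 FPKM with its highest transcript only. Depth limits *ZIC1*, *SOX1* and *SOX3*, and 2 libraries limit all tests.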

Other observations

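In *CRABP1* cells without a *SOX10* UMI, *PAX7* and *LHX2* were found together and apart, at a cut of 3 UMIs each that was chosen after their values were seen. Both passed the cut in 91 of 264 cells in library 1 and 146 of 410 in library 2 (34.5% and 35.6%), *LHX2* alone in 75 and 121 cells (28.4% and 29.5%), *PAX7* alone in 51 and 98 (19.3% and 23.9%) and neither in 47 and 45. Cells with *PAX7* alone had 172 and 204 CPM of *SIX3* and little *SOX2* (27.0 and 30.7 CPM), *OTX2* (13.9 and 27.9), *SIX6* (6.53 and 4.13) or *FEZF1* (19.2 and 43.4). Cells with *LHX2* alone had 134 and 125 CPM of *SOX2*, 90.1 and 80.8 of *OTX2*, 117 and 106 of the eye field gene *SIX6* and 64.6 and 60.8 of *RAX*, against 2.18 and 2.33 CPM of *RAX* with *PAX7* alone. They were also shallower, with median depths of 20957 and 19200 UMIs against 36548 and 32304.5 UMIs, and richer in *CRABP1* (5201 and 4754 against 1413 and 1200 CPM). These are cells of the same 2 libraries, grouped by measured UMIs, so no test was made.

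Among 46 genes of the neural and crest lists seen in at least 10% of these cells, many of those nearest to a factor were shared. *SOX11* was among the 4 nearest of every factor but *PAX7*, and *CDH2* was nearest to *FEZF1*, *OTX2* and *SOX3* as well as *LHX2*. *LHX2* was nearest to *CDH2* (r = 0.63 and 0.71 in libraries 1 and 2) and *SIX6* (0.64 and 0.58), *PAX7* had *MSX2* (0.29 and 0.31), *FGF8* and *PAX3* among its nearest, *SIX3* was nearest to *FGF8* (0.40 and 0.41) and *ZIC2* to *ZIC5* (0.50 and 0.45).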
